A study of Rattus norvegicus with 6 samples.

Results

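The mitochondrial respiratory chain of rat spinal cord was examined complex by complex. Its members were taken by gene symbol alone. A symbol counted if it began with Nduf followed by a, b, c, s or v, was Sdha, Sdhb, Sdhc or Sdhd, or began with Uqcr, Cox4 to Cox8 or Atp5. This found 71 of the 12978 named genes on the array. Of these, 31 belonged to complex I, 4 to complex II, 5 to complex III, 10 to complex IV and 13 to complex V. The other 8 were set apart as accessory genes, namely the assembly factors Ndufaf1 to Ndufaf7 and Cox7a2l.

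RNA was taken from the spinal cord of Sprague-Dawley females that carried a superoxide dismutase gene with the G93A mutation (SOD1 G93A), which models the motor neuron disease amyotrophic lateral sclerosis, and from wild-type (WT) littermates of matched age. Both genotypes were taken before symptoms (presymptomatic), when disease began (onset) and late in disease (end stage). Each of these 6 groups was 1 pool of 5 rats on 1 Illumina BeadChip. No group therefore had a replicate, and the number of arrays limits the precision of every value. The labels give an age of 10 weeks for every pool although the design text gives it for the presymptomatic rats alone, they name both the lumbar and the thoracic cord, and no source used here names the promoter that drives the mutant gene.

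The respiratory chain passes electrons from NADH (complex I) and succinate (complex II) through ubiquinone to complex III, and on through cytochrome c to oxygen at complex IV. Complexes I, III and IV pump protons across the inner mitochondrial membrane, and complex V, the ATP synthase, lets them back through a rotating ring to make ATP. Most subunits are encoded in the nucleus, and motor neurons, with long axons and steady firing, depend strongly on this supply of ATP.

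In the deposited table the probe IDs and the values did not belong together row by row. All gene names therefore depend on a reordering, in which the IDs were sorted as text. That order was checked without any respiratory chain gene. With sorted IDs, probes of sensory receptors were detected on all 6 arrays in 1.38% of 1304 cases (95% exact interval 0.82 to 2.17), and probes of cytosolic ribosomal and proteasome genes in 86.7% of 120 (79.3 to 92.2). With the IDs as deposited the shares were 37.8% and 39.2%. A probe counted as detected at a detection p below 0.01, and the count of detected probes, out of 22226, was lowest in the presymptomatic SOD1 G93A pool at 9116 and highest in the presymptomatic WT pool at 10942. The probe of the rat Sod1 gene read between 12.79 and 13.06 on the log2 scale in the 6 pools, and, as a probe of the rat gene, it does not check the mutant gene.

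Of the 71 members, 66 were detected on all 6 arrays. Ndufv3 was detected on 5 arrays and Atp5mc3 on 3. Cox8c, Ndufb4 and Ndufs4 were detected on none and have no measured level. The 68 members detected on at least 1 array are described below, next to the 8752 genes that passed the same rule. Ndufs6-ps1 is annotated as a pseudogene in RefSeq and Ndufa10l1 is a close relative of Ndufa10, so both readings are uncertain. Levels are log2 intensities after background correction and quantile normalization, with a floor of 6.62. Differences of dim genes are understated on this scale, and levels of different probes cannot be compared with each other.

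At end stage, 66 of the 68 detected members were lower in the SOD1 G93A pool than in the WT pool of that stage, whereas 53.5% of all detected genes were lower. The median difference of the members was −0.37 on the log2 scale and that of all genes was −0.01. An intensity at least 20% lower, which is 0.32 on the log2 scale, was seen in 40 members, against 14.5% of all genes. At least 2-fold lower was 1 member, Ndufa8, against 1.69% of all genes. The 2 members that were not lower were Atp5mk at 0.10 and Ndufaf4 at 0.05.

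At onset 62 of 68 members were lower in the SOD1 G93A pool (53.8% of all genes), with a median of −0.20 against −0.01 for all genes. A level at least 20% lower was seen in 23 members (9.13% of all genes). The presymptomatic pools differed in the other direction. There, 50 of 68 members were higher in the SOD1 G93A pool (55.7% of all genes), and the median was 0.15 against 0.02. At least 25% higher, the same distance upwards on the log2 scale, were 21 members (14.2% of all genes), and 7 were at least 20% lower (10.9%).

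Pairs of WT pools, counted in the same way, show the spread without the mutation. The median of the 68 members was −0.03 between WT onset and presymptomatic pools, 0.11 between WT end-stage and onset pools and 0.06 between WT end-stage and presymptomatic pools. Between WT onset and presymptomatic pools 8 members were at least 20% lower (7.54% of all genes) and 3 at least 25% higher (8.28%). These counts were 1 lower (7.22%) and 8 higher (7.68%) between WT end-stage and onset pools, and 3 lower (6.78%) and 7 higher (7.62%) between WT end-stage and presymptomatic pools. The end-stage median of −0.37 thus lay outside the range of WT pairs, while the presymptomatic median of 0.15 was close to the WT value of 0.11. The members were mostly bright probes, so bright genes are the nearer background. Among the 1232 genes with a mean level of 10 or more, 59.3% were lower at end stage and the median was −0.11, and all 54 members at such levels were lower, with a median of −0.41.

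**Figure D1:**
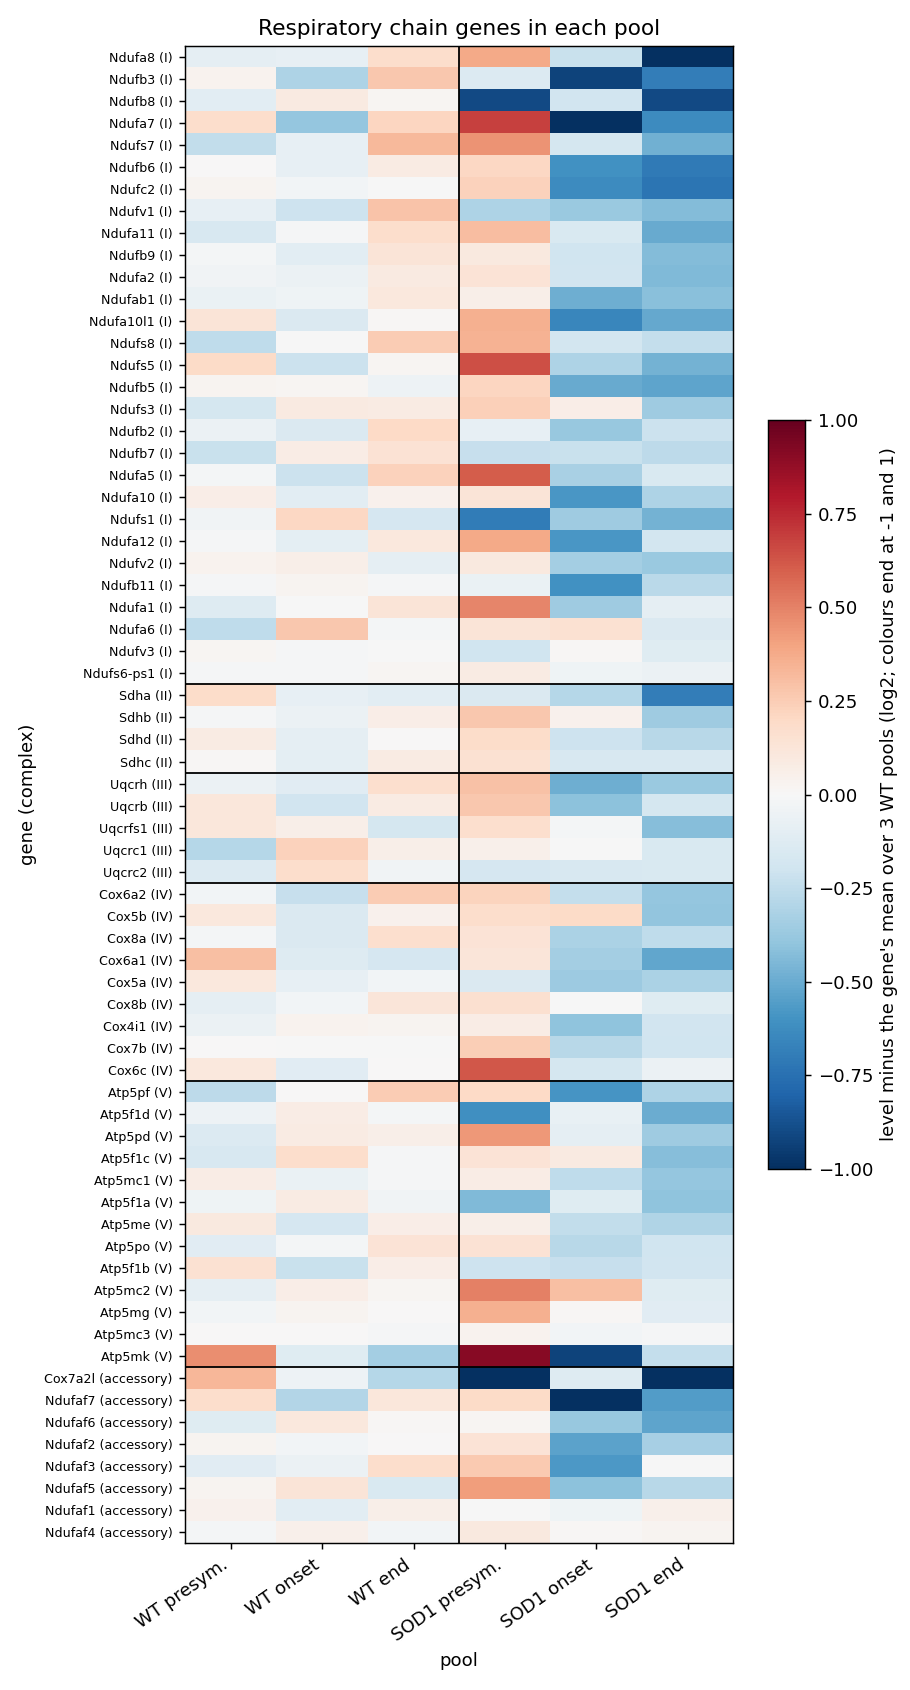
Level of each of the 68 detected members (rows, with the complex in brackets) in each of the 6 pools (columns), as log2 difference from the gene's mean over the 3 WT pools. Blue marks lower and red higher levels, colours end at −1 and 1, and the SOD1 G93A onset and end-stage columns are mostly blue while 50 of 68 genes were higher in the presymptomatic SOD1 G93A pool than in its WT pool.

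The range of the 3 WT pools gives the overlap gene by gene. The end-stage SOD1 G93A pool lay below all 3 WT pools in 56 of 68 members (35.2% of all genes, 43.9% of genes at a level of 10 or more). The onset pool did so in 49 members (33.4% of all genes, 44.6% of the bright ones). The presymptomatic pool lay above all 3 WT pools in 41 members. That share was 37.5% of all genes, 33.5% of the bright ones and 43.2% of genes detected on all 6 arrays. A total of 33 members were above the WT range in the presymptomatic pool and below it in the end-stage pool, against 10.4% of all genes and 15.1% of the bright ones. Only 9 members had all 3 SOD1 G93A pools below all 3 WT pools (6.73% of all genes, 9.82% of the bright ones). All 3 were above in 0 members (8.11% and 6.57%). The presymptomatic SOD1 G93A pool was the highest of the 6 in 40 members (26.9% of all genes, 25.4% of the bright ones). The lowest was the end-stage SOD1 G93A pool in 30 members (20.1% and 28.5%). It was the onset SOD1 G93A pool in 27 members (19.6% and 21.6%).

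Tests were made with limma across all 12711 detected probes, with the 3 WT pools as a group and each SOD1 G93A pool taken to vary as they do. In the end-stage SOD1 G93A pool against the WT pools, 1 of 68 members, Ndufc2, passed an adjusted p of 0.05, and it was lower. Of all probes, 1.68% were called, 0.37% lower and 1.31% higher. At an unadjusted p below 0.05, 27 members were lower and 0 higher, against 7.47% of all probes lower and 10.3% higher. The onset pool against the WT pools gave 0 called members and 0% of probes called, with 20 members lower and 1 higher at an unadjusted p below 0.05 (5.69% and 6.91% of all probes). The presymptomatic pool gave 0 called members and 0% of probes called, with 12 members higher and 6 lower at that unadjusted level (8.66% and 5.39% of all probes).

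The genotype comparison over the 3 stages, with stage as a block, gave 0 called members and 0% of probes called in limma. Its smallest adjusted p among the members was 0.383, and 8 members were lower and 0 higher at an unadjusted p below 0.05 (4.46% and 4.83% of all probes). Among bright genes the unadjusted shares were higher than over all probes. Of the 1232 genes at a level of 10 or more, 11.2% were lower and 7.55% higher in the genotype comparison. All 8 lower members were among the 54 bright members, a share not far above that of bright genes. At end stage 21.8% of bright genes were lower and 11.2% higher, beside 24 and 0 of the 54 bright members. At onset the shares were 16.2% lower and 8.28% higher, beside 16 and 1 bright members, and before symptoms 7.87% and 7.55%, beside 5 and 10.

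The end-stage against the presymptomatic SOD1 G93A pool gave 0 called members and 0% of probes called, with a smallest adjusted p of 0.0556 in limma. In that comparison 60 of 68 members were lower at end stage (51.4% of all genes), the median was −0.48, and 32 members were lower and 1 higher at an unadjusted p below 0.05 (9.12% and 8.25% of all probes, 20.5% and 10.4% of bright genes). The 4 members that were at least 2-fold lower were Ndufa8 at −1.45, Ndufa7 at −1.31, Atp5mk at −1.14 and Ndufs5 at −1.11, against 1.87% of all genes. With 2 residual degrees of freedom these p-values rest on the spread between 3 WT pools labelled with different stages.

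**Figure D2:**
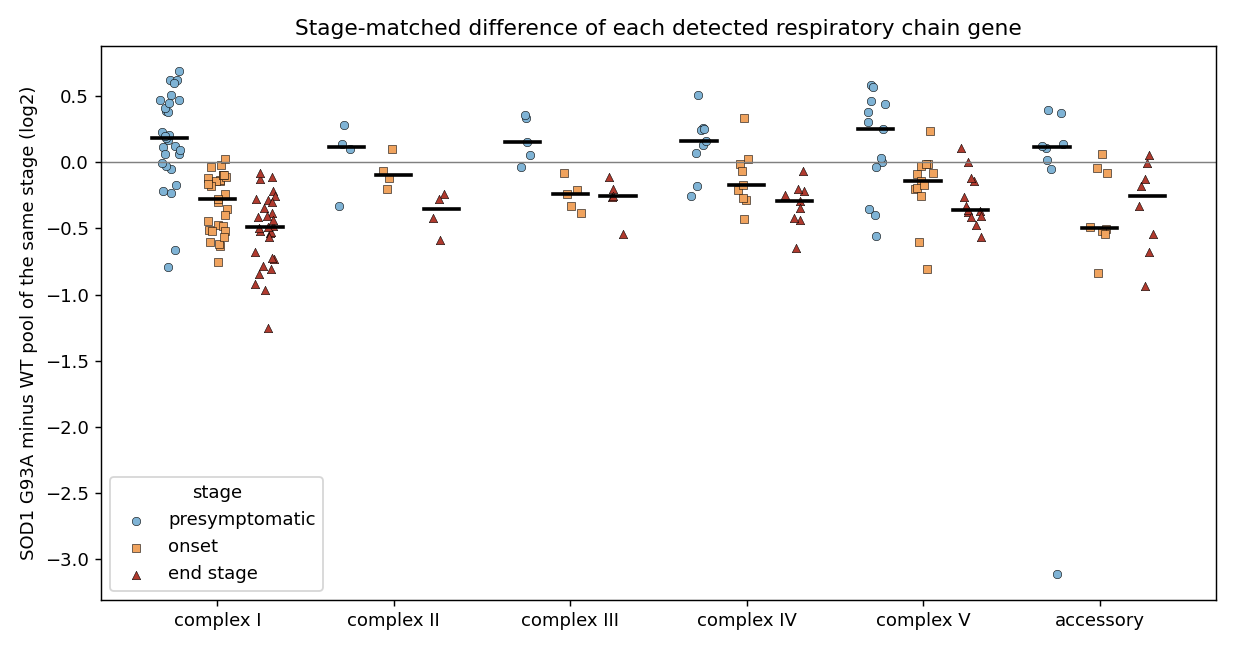
Stage-matched difference, SOD1 G93A pool minus WT pool (log2), of each of the 68 detected members, by complex; each point is 1 gene, its shape and colour give the stage and the black bars are medians. The end-stage points of complexes I to IV all lie below 0, and Cox7a2l at −3.12 lies far below the other accessory genes at the presymptomatic stage.

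Promoters give a property of sequence that the choice by symbol did not use. RefSeq promoter windows of the GRCr8 assembly, from 250 bases before to 50 bases after each gene's start, were found for 62 of the 71 members. They were searched on both strands for letters bound by regulators known to act on respiratory chain genes. The motif of NRF1 (GCGC, any base, TGCGC) was present in 24.2% of the 62 members, 9.05% of 7261 genes detected on the arrays and 4.67% of all 27457 genes. The motif of ETS factors (CCGGAAG), the family of GABPA, was present in 30.6%, 16.2% and 9.21%. The motif of YY1 (AAGATGGC) was present in 17.7%, 5.18% and 3.41%. At least 1 of the 3 was found in 37 members, or 59.7%, against 26.6% of the detected genes and 15.5% of all genes. By complex this was 15 of 27 promoters in complex I, 4 of 4 in II, 3 of 4 in III, 3 of 8 in IV and 9 of 12 in V. It was 3 of 7 among the accessory genes. The NRF1 motif was found in 0 of the 8 complex IV promoters. The 62 members include Cox8c, Ndufb4 and Ndufs4, which were detected on no array. Promoters of bright genes, the nearer background for levels, were not counted apart. A match is a description of letters in a window, and binding was not measured.

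The promoters of Sdha, Ndufs7 and Atp5me are printed because together they hold all 3 motifs and their genes stand in complexes II, I and V. They were chosen after the matches were seen. Sdha lies at chr1:30764303-30764602 on the plus strand, Ndufs7 at chr7:10110449-10110748 on the minus strand and Atp5me at chr14:1464610-1464909 on the plus strand. Each runs 5′ to 3′ along its gene, with the matched letters in capitals.
Sdha: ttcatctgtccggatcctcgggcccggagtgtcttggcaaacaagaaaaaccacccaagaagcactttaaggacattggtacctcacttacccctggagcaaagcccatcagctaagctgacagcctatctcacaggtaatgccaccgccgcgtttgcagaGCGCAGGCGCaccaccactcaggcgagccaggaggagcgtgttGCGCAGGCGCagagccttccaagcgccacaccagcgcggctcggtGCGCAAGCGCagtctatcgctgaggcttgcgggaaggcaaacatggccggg
Ndufs7: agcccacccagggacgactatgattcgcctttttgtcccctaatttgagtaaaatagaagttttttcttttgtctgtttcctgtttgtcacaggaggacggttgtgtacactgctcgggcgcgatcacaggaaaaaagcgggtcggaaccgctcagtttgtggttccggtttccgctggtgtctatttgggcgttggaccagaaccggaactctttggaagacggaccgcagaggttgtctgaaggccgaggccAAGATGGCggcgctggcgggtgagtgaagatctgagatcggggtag
Atp5me: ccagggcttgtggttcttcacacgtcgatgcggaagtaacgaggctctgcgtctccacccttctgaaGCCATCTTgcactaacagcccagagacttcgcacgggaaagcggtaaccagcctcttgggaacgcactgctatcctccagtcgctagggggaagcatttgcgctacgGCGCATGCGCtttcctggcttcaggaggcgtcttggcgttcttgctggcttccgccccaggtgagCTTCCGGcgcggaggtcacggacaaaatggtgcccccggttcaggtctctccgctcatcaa
In Sdha the NRF1 motif stands 3 times, on the minus strand of the window. In Ndufs7 the YY1 motif stands once, just after the start of the gene. In Atp5me the YY1 motif comes first, on the minus strand, then the NRF1 motif, whose letters read as a match on both strands, and last the ETS motif on the minus strand.

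Complex I, which oxidises NADH, had the lowest median of the 5 complexes at onset and at end stage. All 29 detected members were lower in the SOD1 G93A pool at end stage, with a median of −0.49, and 28 of 29 were lower at onset, with a median of −0.28. At the presymptomatic stage 21 of 29 were higher and the median was 0.19. Whether complex I differed from the other complexes was not tested.

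Ndufc2, a small accessory subunit of the membrane arm, read 11.88, 11.82 and 11.85 in the presymptomatic, onset and end-stage WT pools (mean 11.85 ± 0.029, SD, n = 3). It read 12.08, 11.22 and 11.11 in the SOD1 G93A pools of the same stages. The presymptomatic SOD1 G93A pool was above the WT range and the other 2 were well below it. Against the WT pools, Ndufc2 fell by 0.73 ± 0.043 (SE) at end stage, 1.66-fold lower, with an adjusted p of 0.0406 in limma. The call rests on a very small WT spread. With any of the WT pools left out, no probe at all was called, so those fits cannot judge this call. The difference then lay between −0.75 and −0.72. The call was lost in 5 of 8 other settings. Over those 8 settings the adjusted p in limma ran from 0.0274 to 0.341 and the difference from −0.81 to −0.69.

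Ndufa8, an accessory subunit on the outer face of the membrane arm, had the largest end-stage difference of the chain at −1.25. It read 11.01, 11.02 and 11.28 in the WT pools and 11.48, 10.88 and 10.03 in the SOD1 G93A pools. Its level was the highest of the 6 pools in presymptomatic SOD1 G93A rats and the lowest at end stage. Against the WT pools the end-stage difference was −1.08 ± 0.14 (SE), with an adjusted p of 0.0982 in limma. It passed in 2 of 8 other settings, over which the difference ran from −1.13 to −1.02 and the adjusted p in limma from 0.0207 to 0.187.

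Ndufb3 and Ndufb8 are accessory subunits of the far part of the membrane arm. Ndufb3 read 11.18, 10.84 and 11.42 in the WT pools and 11.01, 10.22 and 10.46 in the SOD1 G93A pools, a difference of −0.96 at end stage. Its onset and end-stage SOD1 G93A pools were below the WT range and the presymptomatic pool was within it. Ndufb8 read 11.90, 12.10 and 12.03 in the WT pools and 11.11, 11.82 and 11.11 in the SOD1 G93A pools, with −0.92 at end stage. All 3 SOD1 G93A pools of Ndufb8 were below all 3 WT pools, and it was already low before symptoms, unlike most members. In limma its difference from the WT pools was −0.90 ± 0.097 (SE) at end stage, with an adjusted p of 0.0749.

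The subunits of the matrix arm carry the flavin and most of the iron-sulfur clusters. Ndufv1, which binds the flavin and takes electrons from NADH, read 10.75, 10.63 and 11.12 in the WT pools and 10.52, 10.46 and 10.40 in the SOD1 G93A pools. All 3 SOD1 G93A pools were below the WT range. Ndufs1, the largest iron-sulfur subunit, read 11.03, 11.28 and 10.90 in the WT pools and 10.37, 10.72 and 10.60 in the SOD1 G93A pools. It too was below the WT range at all 3 stages, and its lowest pool was the presymptomatic one. Ndufs7, which holds the last cluster before ubiquinone and whose promoter is printed above, read 10.87, 11.04 and 11.44 in the WT pools and 11.56, 10.94 and 10.64 in the SOD1 G93A pools. Of these 3, Ndufs7 alone was above the WT range before symptoms, and its end-stage difference was −0.81.

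By arm, leaving out the pseudogene Ndufs6-ps1 and Ndufab1, which sits in both arms, 15 of 15 detected membrane-arm genes were lower at end stage, with a median of −0.52, and 12 of 12 matrix-arm genes, with a median of −0.41. At onset the medians were −0.35 and −0.15, and at the presymptomatic stage 0.19 and 0.38. In the membrane arm, 14 of 15 genes had an end-stage SOD1 G93A level below all 3 WT pools, and in the matrix arm 9 of 12 (35.2% of all genes, 43.9% of bright genes). The difference between the arms was not tested.

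Complex II, succinate dehydrogenase, is also an enzyme of the citric acid cycle, and its 4 subunits were all detected on all arrays. The end-stage median was −0.35, with 4 of 4 lower, the onset median −0.09 and the presymptomatic median 0.12. All 4 end-stage SOD1 G93A levels were below all 3 WT pools, as were those of 35.2% of all genes and 43.9% of bright genes. Sdha, the flavoprotein that oxidises succinate, read 10.86, 10.59 and 10.57 in the WT pools and 10.53, 10.39 and 9.98 in the SOD1 G93A pools. All 3 SOD1 G93A pools were below all 3 WT pools, with −0.58 at end stage.

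Sdhb, the iron-sulfur subunit, read 11.73, 11.68 and 11.81 in the WT pools and 12.01, 11.78 and 11.39 in the SOD1 G93A pools. Sdhd, a membrane anchor with the haem, read 11.21, 11.04 and 11.14 in the WT pools and 11.31, 10.92 and 10.86 in the SOD1 G93A pools. Both were above the WT range before symptoms and below it at end stage. The end-stage differences were −0.42 for Sdhb and −0.28 for Sdhd.

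Complex III, which hands electrons from ubiquinol to cytochrome c, had the smallest end-stage median, −0.25, with 5 of 5 detected genes lower. Its medians were −0.24 at onset and 0.15 before symptoms. Uqcrh, the hinge protein that helps cytochrome c dock, read 13.16, 13.11 and 13.39 in the WT pools and 13.52, 12.73 and 12.85 in the SOD1 G93A pools. It crossed from above the WT range before symptoms to below it at onset and end stage.

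Uqcrb, a small subunit near the ubiquinone site, read 12.75, 12.45 and 12.72 in the WT pools and 12.91, 12.23 and 12.46 in the SOD1 G93A pools. Its end-stage SOD1 G93A level lay within the WT range. Uqcrfs1, the Rieske iron-sulfur protein, read 11.82, 11.76 and 11.53 in the WT pools and 11.88, 11.68 and 11.28 in the SOD1 G93A pools. Only its end-stage pool was below all 3 WT pools. The core proteins Uqcrc1 and Uqcrc2 had end-stage differences of −0.20 and −0.11, smaller than the SD of their WT pools (0.26 and 0.16, n = 3). Uqcrc2 read 11.81, 12.11 and 11.90 in the WT pools and 11.77, 11.78 and 11.79 in the SOD1 G93A pools, all 3 just below the WT range.

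**Figure D3:**
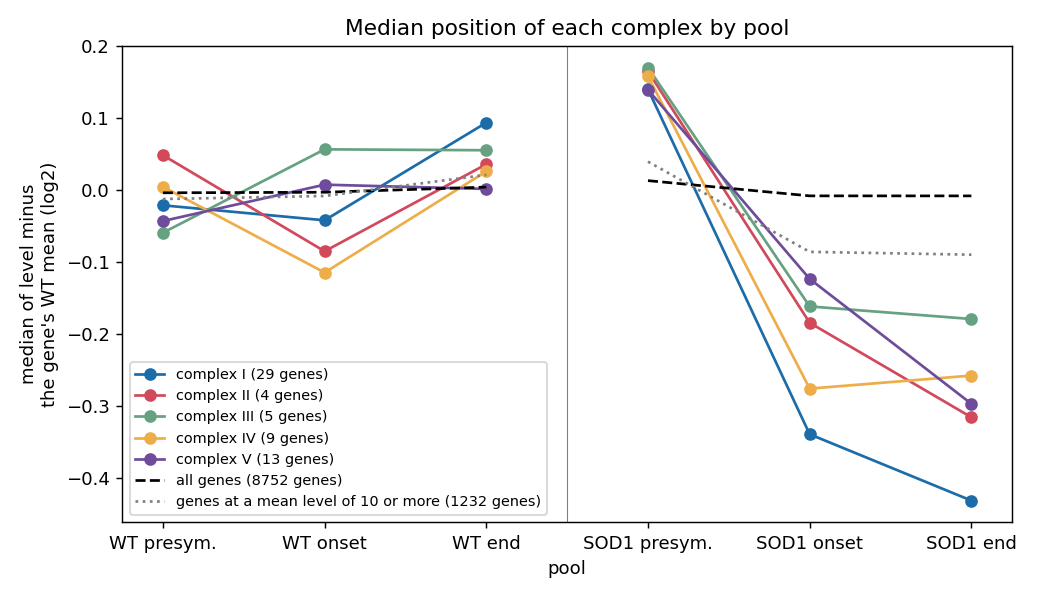
Median over the genes of each complex of the log2 level minus the gene's mean over the 3 WT pools (vertical axis), in each of the 6 pools (horizontal axis), with the same for all genes (dashed) and for genes at a mean level of 10 or more (dotted). The WT medians of the 5 complexes stay between −0.11 and 0.09, the presymptomatic SOD1 G93A pool sits at 0.14 to 0.17, and the end-stage SOD1 G93A pool at −0.43 to −0.18.

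Complex IV, cytochrome c oxidase, had 9 detected members, all 9 lower at end stage with a median of −0.29. The onset median was −0.17 and the presymptomatic median 0.16. Cox5b, a subunit on the matrix side, read 12.06, 11.80 and 11.99 in the WT pools and 12.12, 12.14 and 11.55 in the SOD1 G93A pools. It was the only member whose highest level was in the onset SOD1 G93A pool, and it was below the WT range only at end stage.

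Several complex IV subunits exist as a widespread form and a form of fewer tissues. For subunits 6A and 8 the second is a form of heart and skeletal muscle. Cox4i1, the widespread form of subunit 4, read 13.10, 13.19 and 13.18 in the WT pools and 13.23, 12.75 and 12.96 in the SOD1 G93A pools. Cox6a1, the widespread form of subunit 6A, read 14.25, 13.82 and 13.78 in the WT pools and 14.07, 13.61 and 13.43 in the SOD1 G93A pools. Cox8a, the widespread form of subunit 8, read 12.59, 12.47 and 12.78 in the WT pools and 12.75, 12.30 and 12.35 in the SOD1 G93A pools. All 3 were below the WT range at onset and at end stage, with end-stage differences of −0.22, −0.35 and −0.42.

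The muscle forms Cox6a2 and Cox8b were read near the lower end of the scale. Cox6a2 read 7.46, 7.27 and 7.75 in the WT pools and 7.72, 7.26 and 7.11 in the SOD1 G93A pools, with −0.64 at end stage. Cox8b read 6.80, 6.86 and 7.01 in the WT pools and 7.05, 6.89 and 6.77 in the SOD1 G93A pools, close to the floor. For Cox6a2 the end-stage WT pool was the highest of the 6. The 12 fast skeletal muscle markers on the array, such as Ckm and Tnnc2, were all detected, 11 of them on all arrays. Their summed linear intensity was 9937 in the end-stage WT pool, 4964 and 6563 in the other WT pools, 4917 and 6488 in the presymptomatic and onset SOD1 G93A pools and 2852 in the end-stage SOD1 G93A pool. The part of muscle RNA in the Cox6a2 and Cox8b values was not tested, nor was its part in the other members.

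In complex V 12 of 13 detected members were lower at end stage, with a median of −0.36. The onset median was −0.14 with 12 of 13 lower, and the presymptomatic median was 0.25 with 9 of 13 higher. The parts of the enzyme did not follow the same course before symptoms. Of the 4 detected genes of the F1 head, which makes ATP, 3 were lower in the presymptomatic SOD1 G93A pool and the median was −0.38. Of the 6 genes of the stalk and membrane part, 5 were higher, with a median of 0.41. At end stage the medians were −0.39 and −0.35. This split rests on few genes and 1 pair of pools, and it was not tested.

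Atp5f1a, the alpha subunit of the head, read 12.92, 13.04 and 12.92 in the WT pools and 12.52, 12.84 and 12.56 in the SOD1 G93A pools. Atp5f1b, the catalytic beta subunit, read 13.82, 13.45 and 13.74 in the WT pools and 13.46, 13.44 and 13.48 in the SOD1 G93A pools. Atp5f1d, the delta subunit of the central stalk, counted here with the head, read 11.79, 11.91 and 11.82 in the WT pools and 11.23, 11.77 and 11.34 in the SOD1 G93A pools. Atp5f1a and Atp5f1d had all 3 SOD1 G93A pools below all 3 WT pools, with their lowest level before symptoms. Atp5f1b was below the WT range at onset alone, by a small margin, and the gamma subunit, Atp5f1c, was within the WT range before symptoms and below it at end stage.

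In the stalk, Atp5pf, known as coupling factor 6, read 11.83, 12.10 and 12.35 in the WT pools and 12.29, 11.50 and 11.79 in the SOD1 G93A pools, with −0.56 at end stage. Atp5pd, the d subunit of the stalk, read 9.93, 10.15 and 10.12 in the WT pools and 10.50, 9.98 and 9.71 in the SOD1 G93A pools, with −0.41 at end stage. Both were below the WT range at end stage, and Atp5pd was above it before symptoms. Atp5mk, a small membrane subunit also called DAPIT, read 8.93, 8.34 and 8.12 in the WT pools and 9.37, 7.53 and 8.23 in the SOD1 G93A pools. Its presymptomatic pool was the highest of the 6 and its onset pool the lowest, but its WT pools also differed widely (SD 0.42, n = 3).

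The c ring, the rotor that protons turn, is encoded by 3 genes whose mature protein is the same and whose import signals differ. Atp5mc1 read 12.73, 12.59 and 12.65 in the WT pools and 12.73, 12.40 and 12.27 in the SOD1 G93A pools. Atp5mc2 read 11.50, 11.66 and 11.61 in the WT pools and 12.09, 11.89 and 11.47 in the SOD1 G93A pools. Atp5mc1 left the WT range downwards at onset, while Atp5mc2 was above it at onset and below it only at end stage. Atp5mc3 read between 6.70 and 6.77 in all 6 pools, at the floor.

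**Figure D4:**
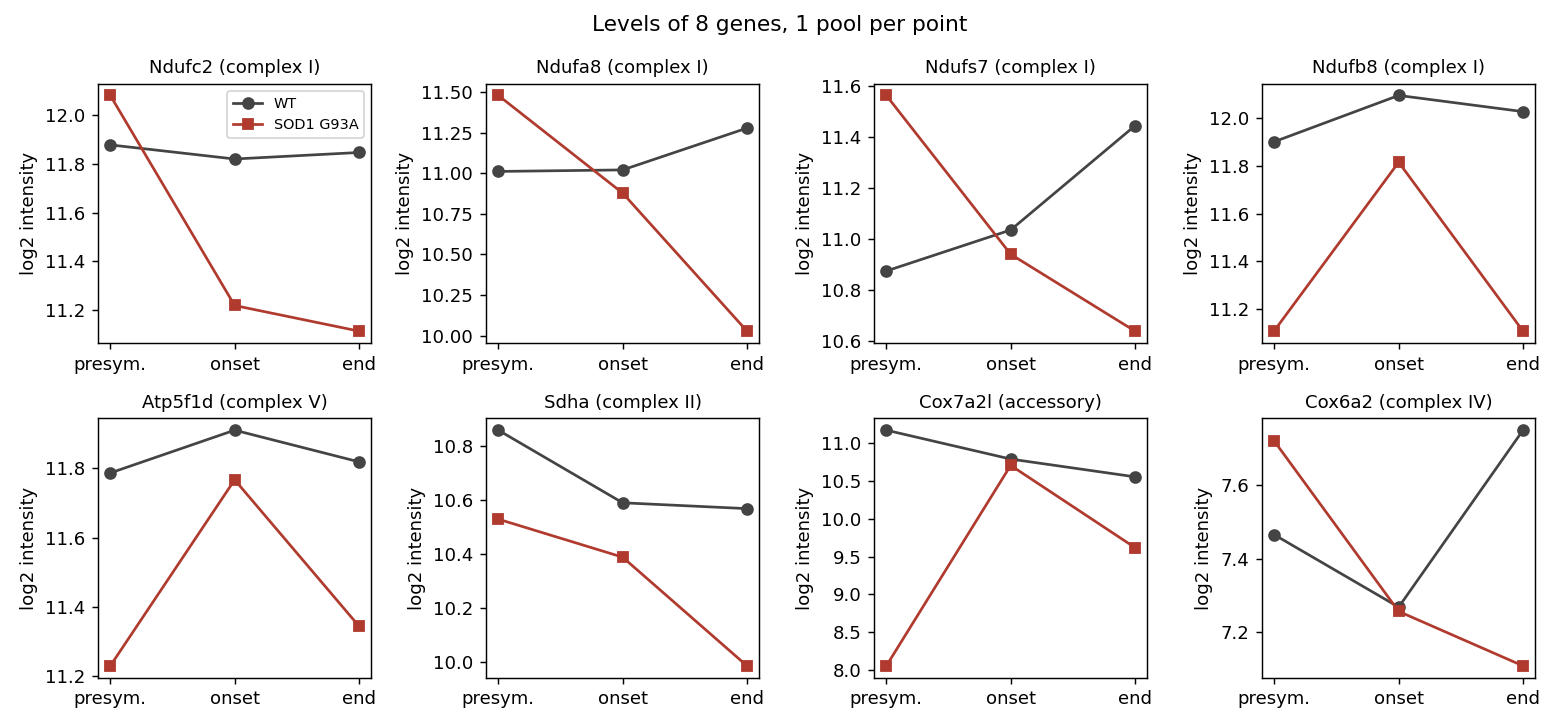
Log2 level (vertical axis, a separate range in each panel) of 8 genes by stage (horizontal axis), with WT pools in grey and SOD1 G93A pools in red and 1 pool per point, so no error bar can be drawn. Ndufc2, Ndufa8 and Ndufs7 start above WT and end below it, Ndufb8, Atp5f1d and Sdha lie below WT at all 3 stages, and Cox7a2l is lowest in the presymptomatic SOD1 G93A pool at 8.05.

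Cox7a2l, which helps to join complexes III and IV into supercomplexes, had the largest difference of any member. It read 11.17, 10.79 and 10.55 in the WT pools and 8.05, 10.71 and 9.62 in the SOD1 G93A pools. The presymptomatic and end-stage SOD1 G93A pools were below all 3 WT pools and the onset pool lay within their range. Its stage-matched difference was −3.12 before symptoms, 8.67-fold lower, then −0.08 at onset and −0.94 at end stage. Against the WT pools the presymptomatic difference was −2.78 ± 0.29 (SE), with an adjusted p of 0.201 in limma. It passed in 4 of 8 other settings, in which the difference ran from −2.82 to −2.54 and the adjusted p in limma from 8.06e-15 to 0.237, the smallest coming from a fit in which all probes shared nearly the same variance. In that same pair of pools 208 genes (2.38%) were at least 2-fold lower and 30 at least 2-fold higher, and the presymptomatic SOD1 G93A array had the fewest detected probes. The part of that array in the low value was not tested.

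The 7 assembly factors of complex I, Ndufaf1 to Ndufaf7, are not part of the finished enzyme. With Cox7a2l they gave 7 of 8 accessory genes lower at onset, with a median of −0.50, and 7 of 8 lower at end stage, with a median of −0.26. Before symptoms 6 of 8 were higher. Ndufaf7, a methyltransferase that modifies a core subunit, had −0.84 at onset and −0.68 at end stage. Ndufaf1 and Ndufaf4 differed from the WT pool by −0.05 to 0.12 at the 3 stages and were read close to the floor.

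Other genes of the pathway were counted in the same way. Among 28 detected assembly factors of all complexes, the Ndufaf genes included, 23 were lower at end stage with a median of −0.27. The largest differences were those of Ndufaf7 at −0.68 and Cox17, a copper chaperone, at −0.61. Among 14 enzymes of the citric acid cycle and pyruvate dehydrogenase, 13 were lower at end stage with a median of −0.39, led by Dlst at −0.74 and Pdhb at −0.57. In contrast with the chain, 11 of these 14 were also lower before symptoms, with a median of −0.29. In limma 0 genes of these lists passed in the end-stage comparison, with smallest adjusted p-values of 0.0555 and 0.105, and 3 assembly factors and 5 citric acid cycle genes were lower at an unadjusted p below 0.05 (7.47% of all probes, 21.8% of bright genes).

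Of 6 nucleotide and phosphate carriers and porins, 4 were lower at end stage, with a median of −0.34 and the largest differences in Vdac1 at −0.60 and Vdac3 at −0.49. Of 4 electron carriers, 2 were lower at end stage, and the largest differences were those of Etfa at 0.33 and Etfdh at 0.31, both part of electron transfer from fatty acid oxidation. Of 12 detected genes of transcription and mitochondrial DNA maintenance, 10 were lower with a median of −0.06, close to that of all genes. Only 9 of the 12 were detected on all arrays, and Nrf1 and Gabpb1 were detected on none. Several of the 12, such as Ppargc1a, Tfb1m and Gabpa, read close to the floor, where a fall cannot show. The largest differences were those of Twnk, the mitochondrial helicase, at −0.82 and Tfb2m at −0.26. Of 3 detected uncoupling proteins, Slc25a27 differed by −0.30, while Ucp2 differed by 2.21 at end stage, 4.61-fold higher. Ucp2 read 9.37, 9.77 and 8.75 in the WT pools and 8.88, 11.18 and 10.95 in the SOD1 G93A pools, and its difference from the WT pools was 1.66 ± 0.48 (SE) with an adjusted p of 0.248 in limma. In limma no gene of these 4 lists was called at end stage.

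Other mitochondrial and housekeeping complexes did not all take the same course. The 58 detected mitochondrial ribosomal genes were higher before symptoms in 54 cases (median 0.33) and lower at end stage in 49 (median −0.20). The 63 cytosolic ribosomal genes were higher at end stage in 50 cases (median 0.16), and the 40 proteasome genes had an end-stage median of −0.07. In limma 1 mitochondrial ribosomal and 1 proteasome gene passed at end stage, both higher than in the WT pools, where 1.31% of all probes were called higher. These lists were added after the chain's values were known.

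Markers of cell types also differed between the pools. All 12 neuron markers were detected, 11 on all arrays and none at 0, and their summed linear intensity was 45134 to 49485 in the WT pools. It was 38862, 30561 and 27715 in the presymptomatic, onset and end-stage SOD1 G93A pools, below all WT pools at each stage. Single markers did not all follow the sum before symptoms. Uchl1, Syt1 and Rbfox3 were higher than in the WT pool of that stage, Nefl was equal and the rest were lower. The 11 microglia and macrophage markers on the array were detected, 9 on all arrays, and their sum was 9657 to 11766 in the WT pools and 10133, 41167 and 44633 in the SOD1 G93A pools. The sum of 9 oligodendrocyte markers was 20984 to 28767 in WT and 16382 to 24152 in SOD1 G93A pools, and that of 5 astrocyte markers 18586 to 22779 and 17263 to 19800. Gfap, Aldh1l1 and Glul of the astrocyte list were not among the named genes on the array. At end stage Slc1a3 and Gja1 were higher than in the WT pool of that stage, and S100b, Slc1a2 and Aqp4 were lower. The part of these shifts in the levels of the chain was not tested, and in pooled tissue fewer cells of a type and less RNA per cell cannot be told apart.

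**Figure D5:**
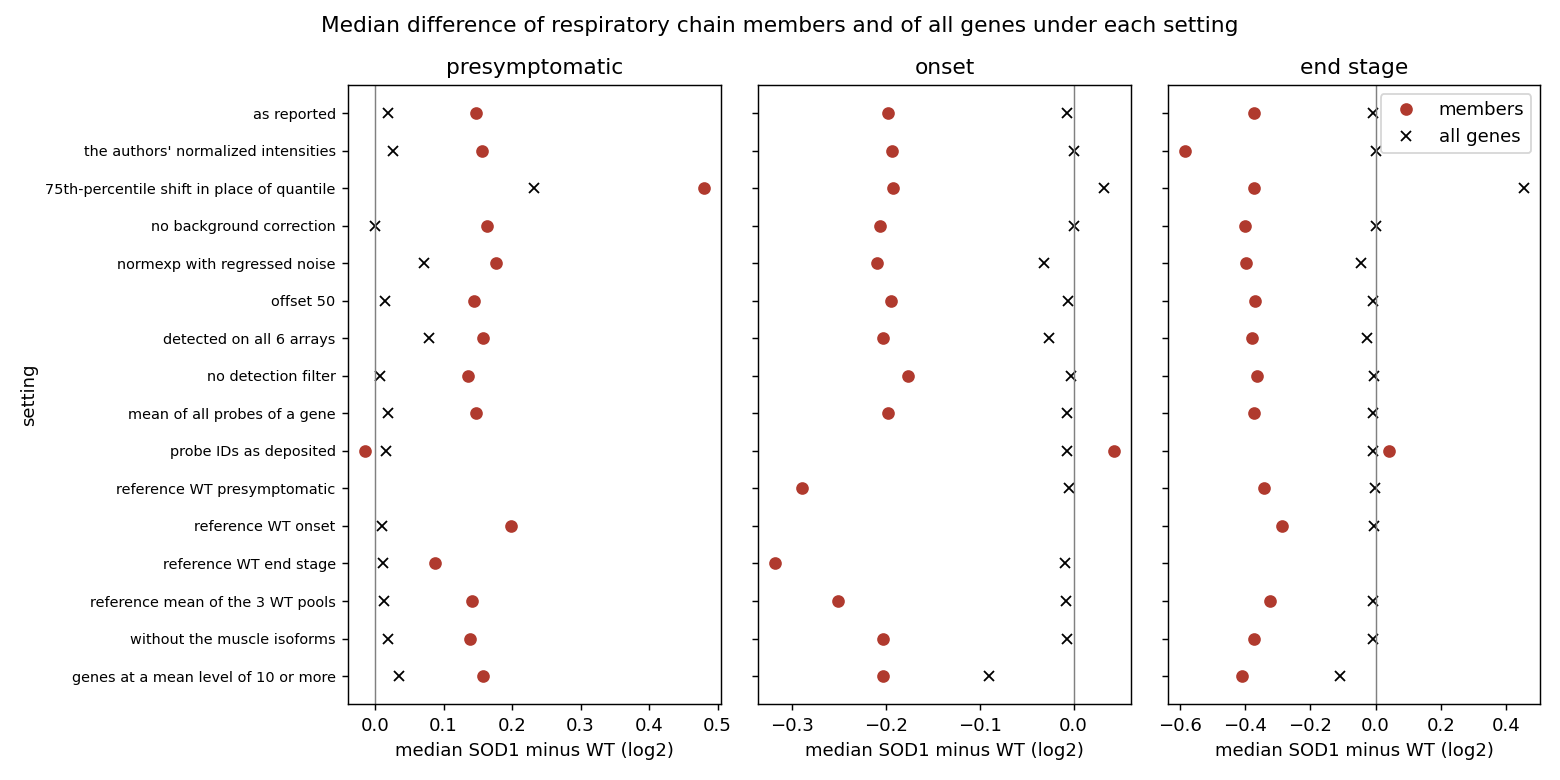
Median stage-matched difference (log2, horizontal axis, a separate range in each panel) of the chain's detected members (red) and of all detected genes (crosses) under each setting (vertical axis), for the 3 stages. The members' median is above 0 before symptoms and below 0 at onset and end stage under each setting except the deposited pairing of probe IDs, where it is −0.014, 0.043 and 0.040.

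The sizes depended on the scale. On the authors' normalized values the end-stage median of the members was −0.58, with a median of 0 for all genes. With each array shifted to its 75th percentile in place of quantile normalization, the presymptomatic median of the members was 0.48 and that of all genes 0.23, while at end stage they were −0.37 and 0.45. On that scale 60 of 68 members and 25.3% of all genes were lower at end stage, 57 members and 37.2% at onset, and 7 members and 18.5% before symptoms.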

How the data were processed

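Biotin-labelled RNA (750 ng of each pool) was hybridised, per the labels' protocols, and groups follow the labelled genotype and disease stage. The deposited table of non-normalized values holds, as deposited, linear intensities with a detection p-value for each probe on each array. Values below 0 occur and array means lay between 331 and 332, so these deposited intensities were already background-subtracted and scaled. They came from BeadStudio 3.2.6, per the submitters' processing notes. A second deposited table holds the authors' normalized intensity, whose method no source used here names; these values were tried as an alternative. Every column of samples was used.

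Sorted probe IDs (text order) were paired with the values as they stand in the file, and gene names came from the platform annotation. Normalization was by neqc of limma 3.58.1 under R 4.3.3 (normexp with noise inferred from detection p, offset 16, quantile, log2). Probes with a detection p below 0.01 on at least 1 array were kept, and the brightest kept probe stood for its gene.

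For genotype, lmFit and eBayes of limma were run on the 6 pools and stage was a block, since the design text matches each WT pool to its SOD1 G93A pool by age. The second fit took the 3 WT pools as a group and each SOD1 G93A pool as a group of 1. Tests were two-sided, with Benjamini-Hochberg adjustment over the kept probes, a threshold of 0.05 and 2 residual degrees of freedom. Labels do not describe technical repeats, so p-values measure only how much these pools vary. Stage-matched differences (SOD1 G93A minus WT) have no replicate and were counted past 20% lower, 25% higher and 2-fold without a test. The fits were tested on simulated data.

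The members, their complexes and the other lists were chosen with earlier results of these data known. Values on every array are given for the 3 members of each complex with the largest end-stage difference, called members, tissue isoforms, the catalytic or redox subunits Ndufs1, Ndufv1, Sdha, Sdhb, Uqcrfs1, Atp5f1a and Atp5f1b and the c ring genes; Ndufs7, Uqcrc2, Atp5mk and Ucp2 were added, and Ndufs6-ps1 and Ndufab1 were taken out of the membrane arm, after their values were seen. The 2 genes of largest end-stage difference are named for other lists. Alternatives changed the normalization, background, filter, probe rule, ID order, variance prior, WT reference and pools.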

Additional observations from a re-analysis of the deposited data

Results flagged for a closer look

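Each of the 5 complexes had a presymptomatic and an end-stage median of opposite sign, as SOD1 G93A minus WT pool on the log2 scale. Complex I went from 0.19 to −0.49, complex II from 0.12 to −0.35 and complex III from 0.15 to −0.25. Complex IV went from 0.16 to −0.29 and complex V from 0.25 to −0.36. Each stage has 1 pool per genotype, so the difference between the stages was not tested for a complex. For single members it was tested with limma as end-stage against presymptomatic SOD1 G93A pool, and no member and no other probe passed. The unadjusted counts of that comparison are given above, beside the shares over all probes and over bright genes.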

How the results depend on the processing

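With 1 pool per group, no interval exists for a stage-matched difference, and members near the floor cannot show a fall. The members' median kept its sign at all 3 stages in each of the 14 alternatives per stage other than the ID order, as did the median of each complex. Leaving out the 2 muscle isoforms, and taking only genes at a level of 10 or more, were chosen after the data were seen. With the IDs as deposited the presymptomatic, onset and end-stage medians were −0.014, 0.043 and 0.040 for all members, −0.058, 0.062 and 0.14 for complex I, −0.011, 0.023 and 0.0074 for complex III, 0.017, −0.041 and −0.14 for complex IV and −0.047, 0.17 and 0.057 for complex V, and complex II had no detected member.

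On the authors' normalized intensities the end-stage medians were −0.58 for all members and −0.68, −0.53, −0.44, −0.62 and −0.52 for complexes I to V. With the 75th-percentile shift the presymptomatic medians were 0.48 for all members and 0.50, 0.44, 0.53, 0.42 and 0.59 for complexes I to V, and complex V was at −0.32 at end stage. Against the presymptomatic WT pool the onset medians were −0.29 (all), −0.23 (II), −0.14 (III), −0.29 (IV) and −0.080 (V), and the end-stage medians −0.36 (I) and −0.26 (V). Against the onset WT pool the end-stage medians were −0.29 (all), −0.37 (I), −0.24 (II) and −0.19 (V), and the presymptomatic medians 0.26 (II) and 0.17 (V). Against the end-stage WT pool the onset medians were −0.32 (all), −0.45 (I) and −0.12 (III), and the presymptomatic medians 0.048 (IV) and 0.046 (V). Against the mean of the WT pools complex V was at 0.14 before symptoms and −0.30 at end stage, and regressed noise gave it 0.30 before symptoms. The cause of these moves was not tested.

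The number of members called by limma at end stage was 0 on the authors' normalized intensities, with regressed noise and with detection on all 6 arrays, 2 with the 75th-percentile shift and with the IDs as deposited, and 3 with a trended and robust variance prior. Leaving out each WT pool in turn gave 0 to 0. The presymptomatic comparison called 4 members on the authors' normalized intensities, 1 with the 75th-percentile shift and without background correction, and 2 with regressed noise and with the trended prior. The end-stage against presymptomatic comparison called 2, 5, 3, 1 and 4 members on the authors' normalized intensities, with the 75th-percentile shift, without background correction, with no detection filter and with the trended prior. The 75th-percentile shift also called 1 member in the genotype comparison and 1 at onset. Over all probes limma called 213 at end stage as reported, and 988 on the authors' normalized intensities, 746 with the trended prior, 539 with the 75th-percentile shift, 412 with regressed noise, 402 without background correction and 0 without any of the WT pools. The presymptomatic and onset comparisons, at 0 as reported, reached 2143 and 248, the end-stage against presymptomatic comparison 2274 and the genotype comparison 468. These all-probe counts are not matched here to a setting. The counts of called members in the same comparisons therefore cannot show whether the chain was called more often than all probes. Some of the called members read at or near the floor. On the authors' normalized intensities Atp5mc3 and Ndufv3 were among those called before symptoms. Atp5mc3 and the pseudogene Ndufs6-ps1 were the members called there between end stage and presymptomatic. Ndufv3, not detected on the presymptomatic SOD1 G93A array, was also the member called before symptoms without background correction. In both settings values below 16 were raised to 16 before log2. Without the stage block the genotype comparison still called 0 members, with 6 at an unadjusted p below 0.05 in place of 8.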
